A study of Mus musculus with 8 samples.

Results

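Deaf1, Aire, Gmeb1, Gmeb2, Sp100, Sp110 and Sp140 encode nuclear proteins that share a SAND domain, and their probes were followed on arrays of pancreatic lymph node, which receives lymph from the pancreas, from mice lacking Deaf1. Every probe whose gene name in the array files is 1 of these 7 names was taken, and controls were left out. This gave 12 of 41174 probes, for 6 of the 7 genes: 3 probes of Deaf1, 1 of Aire, 2 of Gmeb1, 2 of Gmeb2, 3 of Sp100, 1 of Sp110 and 0 of Sp140. On 8 arrays of 2 colours, BALB/c mice without Deaf1 were set against wild-type littermates. Each array held RNA of 1 knockout mouse in red (Cy5) and of a littermate pool of the same age in green (Cy3). Mice aged 4 weeks gave 2 arrays, and their pool was of 2 littermates. Mice aged 12 and 30 weeks gave 3 arrays each, and their pools were of 3 littermates. The labels name no other allele and no treatment.

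The SAND domain is a DNA-binding fold found in proteins that act on chromatin, named after Sp100, Aire, NucP41/75 and Deaf1. Deaf1 binds DNA that holds TTCG and is known in human cells to repress its own promoter, and Aire drives the expression of tissue-restricted self-antigens in thymic medullary epithelium and in rare cells of lymph nodes. Gmeb1 and Gmeb2 bind the glucocorticoid modulatory element and modulate the glucocorticoid receptor, while Sp100 and Sp110 are interferon-induced proteins of nuclear bodies.

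Both Deaf1 probes that gave signal are printed because their readings parted at 30 weeks, and the Sp100 probe because its rise at 4 weeks held in every other setting tried. All are from the array files, with no capitals, and the positions are those of the files (mm8). The single-exon Deaf1 probe, A_52_P456977, covers chr7:141152927-141152986 on the minus strand. The intron-spanning Deaf1 probe, A_51_P275658, has 60 bases mapped over 6181 bases of genome, chr7:141166259-141172439 on the minus strand, so it joins exons. The Sp100 probe A_51_P305583 likewise has its 60 bases over 1682 bases, chr1:87530915-87532596 on the plus strand.
Deaf1 single-exon probe: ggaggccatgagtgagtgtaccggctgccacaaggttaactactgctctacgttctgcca
Deaf1 intron-spanning probe: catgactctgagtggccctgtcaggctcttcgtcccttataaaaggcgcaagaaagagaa
Sp100 intron-spanning probe: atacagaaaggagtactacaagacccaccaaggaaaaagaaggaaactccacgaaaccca

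The last Deaf1 probe, A_52_P545575 (chromosome 7, 141151821 to 141151880, minus strand), was well above background on 0 of 8 arrays in either channel. It was not tested, which leaves 11 member probes. The labels do not say which stretch of Deaf1 is missing, and a signal at these probes does not check the genotype. The single-exon probe lies towards the 3′ end of the gene from the intron-spanning probe, since the gene runs on the minus strand.

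Promoter sequences came from RefSeq (GRCm38.p6), which gave 9 entries for 6 of the 7 genes, each with 250 bases before and 50 bases after a transcription start. Deaf1 has 2 starts in it. The 250 bases before the second are shown because they are rich in TTCG, the core that Deaf1 binds, with TTCG and its reverse complement CGAA in capitals (chr7:141327726-141327975, minus strand, 5′ to 3′).
Deaf1 promoter: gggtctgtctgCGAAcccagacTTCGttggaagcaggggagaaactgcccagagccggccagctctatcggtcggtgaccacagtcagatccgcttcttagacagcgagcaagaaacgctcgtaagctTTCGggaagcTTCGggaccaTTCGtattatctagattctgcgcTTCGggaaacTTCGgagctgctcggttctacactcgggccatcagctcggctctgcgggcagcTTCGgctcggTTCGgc

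This stretch held TTCG 9 times over both strands, 8 of them in the direction of the gene. TTCG occurred on either strand in 38.7% of 32851 promoter entries, and 9 was the largest number in any of them, reached by 1 entry, this one. The other Deaf1 start had 0 copies. The Aire entry had 2 copies, 1 on each strand, and the entries of Gmeb1, Sp140 and Sp100 had 1 each. These counts describe letters in a window, not binding.

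Sp100 and Sp110 shared a run of bases at their starts, shown because both genes had their largest ratios at the same age. The longest stretch common to an entry of each, with 1 mismatch allowed and written N, was ACTTTCNTTTTTCTTTTC. Searched on both strands, it was found in 4 of 32851 entries, of the 3 genes Sp100, Sp110 and Gm7609. The stretch was taken from entries of Sp100 and Sp110, so its presence in these genes was fixed in advance. How long a stretch other promoters share was not tested. In Sp100 it began 49 bases before the start (shown in chr1:85649933-85649962, plus strand), and in Sp110 at base 8 after the start (shown in chr1:85598780-85598809, minus strand). Capitals mark the stretch. The interferon-response core GAAANNGAAA itself was in 3.44% of all entries of 300 bases and in 0 of the 9 entries of the member genes.
Sp100 shared element: agaattACTTTCGTTTTTCTTTTCcccatc
Sp110 shared element: gagatcACTTTCATTTTTCTTTTCttgaag

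Of the 41174 probes on an array, 46.8% to 71.4% were well above background in the knockout channel and 37.2% to 62.6% in the wild-type channel, and no spot was saturated. Ratios below are log2 of knockout over wild type after background correction and loess. Levels are log2 normalised brightness of a channel, scaled between arrays and not to be compared between probes. Between arrays they are less exact at 4 weeks. There the pools read 9.33 and 8.63 for Aire and 13.79 and 14.61 for Sp110, though 9.86 and 9.93 at the intron-spanning Sp100 probe. Levels of 4 weeks also come from a slide and a version of the scanner software of their own. Each ratio was tested against 0 with limma in a fit of all 8 arrays, and a probe is called where the Benjamini-Hochberg adjusted p over 27463 probes is under 0.05. The error after ± is the standard error of that fit. No wild-type mouse was set against a pool and no array had its dyes swapped. The spread of the controls and a dye bias of a probe are therefore not in the test. The labels do not say whether 1 pool served all arrays of an age, so pool readings of an age may be repeats of 1 pool. Wild-type channels correlated by 0.9826 within 4 weeks and by 0.9975 to 0.9993 within 12 and within 30 weeks. In RNA from a whole node, fewer cells of a type and less RNA per cell cannot be told apart. Both arrays of 4 weeks shared 1 slide, so that this age and its slide cannot be told apart. Another slide held all of 12 weeks together with replicate 1 of 30 weeks, and the last held replicates 2 and 3 of 30 weeks. Across probes, the ratio of an array correlated with the share of G and C bases in the probe by −0.318 to −0.117, and by −0.299 and −0.275 at 4 weeks. The probes called higher at 4 weeks hold 36.7% (Sp110), 41.7% (Gmeb1) and 43.3% (Sp100) of G and C, and those of Deaf1 and Aire, below 0 there, 50% to 55%, while those of Gmeb2 hold 35.0% and 38.3%. The part of base composition in the ratios was not tested. Xist and the Y-linked Ddx3y and Eif2s3y set replicate 2 of 12 weeks apart, with ratios of 5.32, −3.89 and −4.86. They also set the ages apart. Pools read Xist at 12.68 and 13.40 at 4 weeks, 7.55 to 7.71 at 12 weeks and 12.60 to 12.62 at 30 weeks. For Ddx3y the pools read 6.09 and 5.98, then 9.05 to 9.17, then 6.02 to 6.10. The labels give no sex. Age and this difference cannot be told apart where 12 weeks are set against another age.

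Between 2 and 3 of the 11 tested member probes were called at each age. At 4 weeks 3 were called, 3 higher and 0 lower in knockout nodes, where 19.2% of all probes were called, 13.3% higher and 5.92% lower. At 12 weeks 2 were called, 1 higher and 1 lower, where 3.35% of all probes were called, 1.52% higher and 1.84% lower. At 30 weeks 3 were called, 2 higher and 1 lower, where 40.1% of all probes were called, 19.5% higher and 20.6% lower. For the mean of the ages 4 were called, 4 higher and 0 lower, where 43% of all probes were called, 24% higher and 19% lower. The difference of 12 minus 4 weeks was called for 3 members, 1 higher and 2 lower, where 5.6% of all probes were called, 1.03% higher and 4.57% lower. That of 30 minus 12 weeks was called for 1 member, higher, where 0.827% of all probes were called, 0.353% higher and 0.473% lower. That of 30 minus 4 weeks was called for 5 members, 2 higher and 3 lower, where 19.1% of all probes were called, 6.52% higher and 12.6% lower. The median ratio of the members was −0.02 at 4 weeks, 0.05 at 12 weeks and 0.08 at 30 weeks, beside 0.03, 0.01 and 0.01 over all probes.

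**Figure D1:**
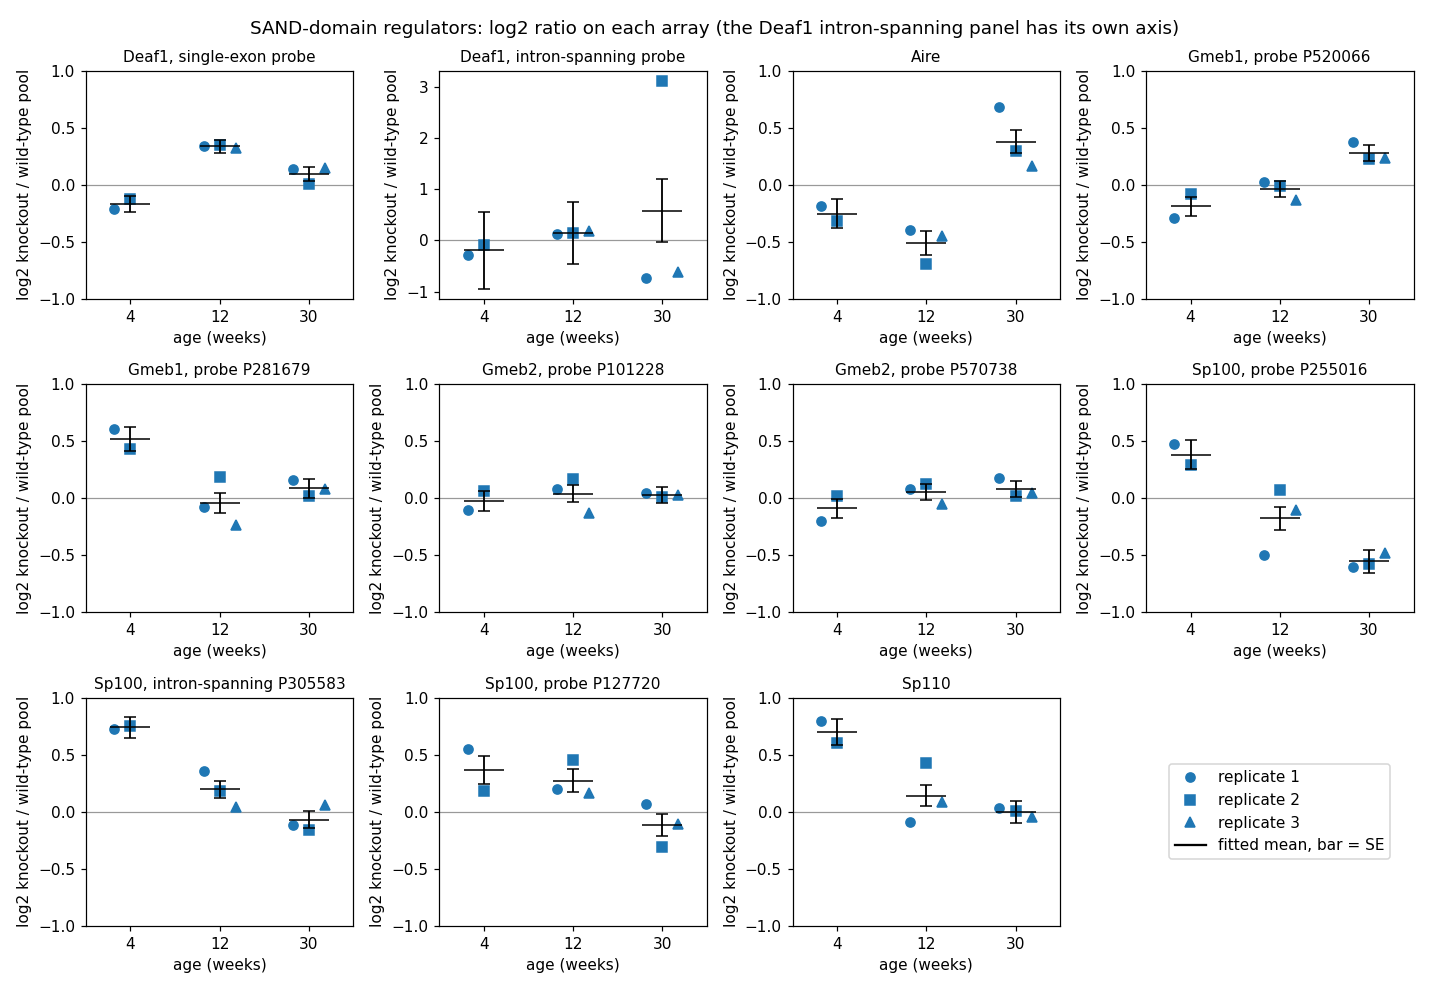
Log2 ratio of knockout over wild-type pool (y axis) at 4, 12 and 30 weeks (x axis) for the 11 tested member probes, with 1 point per array, marker shape for the replicate, and a black line and bar for the fitted mean and its standard error. Sp100 and Sp110 are highest at 4 weeks, Aire is below 0 at 4 and 12 weeks and above 0 at 30 weeks, and the intron-spanning Deaf1 probe, on an axis of its own, reaches 3.11 on 1 array.

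Deaf1, the deleted gene itself, still gave signal in the knockout channel, and at its single-exon probe that signal lay within 0.35 of the wild-type pool on every array. On the log2 level scale the knockout nodes read 8.28 and 8.23 at 4 weeks, 8.77, 8.79 and 8.80 at 12 weeks, and 8.52, 8.42 and 8.54 at 30 weeks. The wild-type pools read 8.49 and 8.35 at 4 weeks, 8.42, 8.44 and 8.49 at 12 weeks, and 8.39, 8.41 and 8.39 at 30 weeks. The wild-type channel was nearly level across ages, and the knockout channel lay below it at 4 weeks and above it on the other 6 arrays. At 4 weeks the ratios were −0.22 and −0.12, with a mean of −0.17 ± 0.07 (adjusted p = 0.14, n = 2). At 12 weeks they were 0.34, 0.35 and 0.32, a rise of 0.34 ± 0.06 (adjusted p = 0.0311, n = 3). At 30 weeks they were 0.14, 0.00 and 0.15, with a mean of 0.10 ± 0.06 (adjusted p = 0.226, n = 3). The groups of ratios at 4 and 12 weeks did not overlap, and the difference of 0.51 ± 0.09 was called (adjusted p = 0.0209). The rise at 12 weeks lost its call without replicate 1 or 3 of 12 weeks (0.33 and 0.35) and without replicate 1 or 3 of 30 weeks (0.34 each), and with the scanner's own ratio (0.41, adjusted p = 0.0671). With arrays centred on their median only, the ratio at 4 weeks turned to 0.39, where the median over all probes was 0.39. The difference of 12 minus 4 weeks lost its call without either array of 4 weeks (0.46 and 0.55) and without replicate 3 of 12 weeks (0.52).

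The intron-spanning Deaf1 probe gave the widest spread of all members. Knockout nodes had log2 levels of 6.62 and 6.85 at 4 weeks, 7.66, 7.61 and 7.70 at 12 weeks, and 7.43, 11.67 and 7.66 at 30 weeks. Wild-type pools had 6.91 and 6.94 at 4 weeks, 7.54, 7.46 and 7.52 at 12 weeks, and 8.17, 8.56 and 8.28 at 30 weeks. One knockout node, replicate 2 of 30 weeks, stood far above every other reading, and the wild-type pools read higher at 30 weeks than at the other ages. The ratios were −0.29 and −0.10 at 4 weeks, 0.12, 0.15 and 0.18 at 12 weeks, and −0.74, 3.11 and −0.62 at 30 weeks. No ratio was called, with 0.58 ± 0.61 at 30 weeks (adjusted p = 0.479). Without replicate 2 of 30 weeks the value there became −0.68 ± 0.08 (adjusted p = 0.00275), the mean of the ages −0.24, the difference of 30 minus 12 weeks −0.83 and that of 30 minus 4 weeks −0.49, all called.

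Markers of pancreatic acinar cells, the enzyme-secreting cells of the pancreas, moved with this probe at 30 weeks. The median ratio of the 7 markers, all of them measured, was −3.83, 3.98 and −4.06 in replicates 1, 2 and 3 of 30 weeks, in the order in which the probe read −0.74, 3.11 and −0.62. At 12 weeks the marker medians were −0.33, 0.18 and 0.29, and at 4 weeks −1.39 and −0.42. Cpa1, which encodes a pancreatic carboxypeptidase, had log2 levels of 12.79, 18.05 and 12.29 in knockout nodes of 30 weeks and 16.17, 14.07 and 16.12 in their pools. The part of these markers in the reading of the probe was not tested. The single-exon Deaf1 probe read 0.14, 0.00 and 0.15 on the same arrays and did not follow them.

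**Figure D2:**
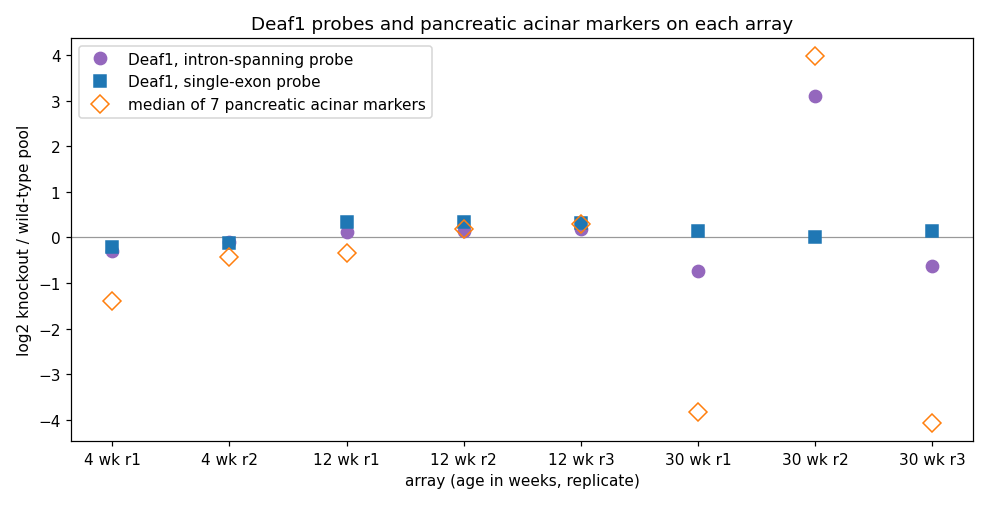
Log2 ratio of knockout over wild-type pool (y axis) on each of the 8 arrays (x axis) for the intron-spanning Deaf1 probe (circles), the single-exon Deaf1 probe (squares) and the median of 7 pancreatic acinar markers (open diamonds). On replicate 2 of 30 weeks the circle is at 3.11 and the diamond at 3.98, while both are below 0 on the other arrays of 30 weeks.

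Aire was lower in knockout nodes at 12 weeks and higher at 30 weeks. Its only probe, A_51_P376127, lies on chromosome 10 at 77433207 to 77433266 (mm8, minus strand) and was well above background in both channels of all 8 arrays. Knockout nodes had log2 levels of 9.14 and 8.31 at 4 weeks, 8.94, 8.76 and 9.001 at 12 weeks, and 10.07, 9.59 and 9.54 at 30 weeks. Wild-type pools had 9.33 and 8.63 at 4 weeks, 9.33, 9.45 and 9.45 at 12 weeks, and 9.39, 9.29 and 9.37 at 30 weeks. At 12 weeks every knockout node was below every pool reading and at 30 weeks every knockout node was above every pool reading. At 4 weeks the channels overlapped across arrays, and each knockout node was below the pool reading of its own array. The ratio was −0.19 and −0.32 at 4 weeks, a mean of −0.25 ± 0.13 (adjusted p = 0.2, n = 2). At 12 weeks it was −0.39, −0.69 and −0.45, so that Aire fell by 0.51 ± 0.10 (adjusted p = 0.0411, n = 3). At 30 weeks it was 0.68, 0.30 and 0.16, a rise of 0.38 ± 0.10 (adjusted p = 0.0183, n = 3).

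The ratio of Aire was higher at 30 weeks than at 12 weeks by 0.89 ± 0.15 (adjusted p = 0.0398) and than at 4 weeks by 0.63 ± 0.16 (adjusted p = 0.0286), and the arrays of 30 weeks did not overlap those of either age. Within the slide shared by both ages, which has 1 array of 30 weeks, the difference of 30 minus 12 weeks was 1.19 ± 0.18 (adjusted p = 0.347), with the lone array assumed to vary like the others. The fall at 12 weeks lost its call whichever of the 8 arrays was left out (−0.57 to −0.42, adjusted p at best 0.0541), and the value was 0.38 at 4 weeks and 0.027 at 12 weeks when arrays were centred on their median with no loess. Under that centring the median over all probes was 0.39 at 4 weeks and 0.34 at 12 weeks, above Aire. The ratio of Aire at 4 weeks was called lower in 2 of 21 other settings, 1 of them the scanner's own ratio (−0.63, adjusted p = 0.0306). The rise at 30 weeks lost its call without replicate 1 of that age (0.23, adjusted p = 0.13). Of the difference of 30 minus 12 weeks, 1 of the 8 fits without an array kept the call, that without replicate 1 of 12 weeks, and the values ran from 0.74 to 1.00. The difference of 30 minus 4 weeks lost its call without either array of 4 weeks (0.70 and 0.57) and without replicate 1 or 2 of 30 weeks (0.48 and 0.67).

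**Figure D3:**
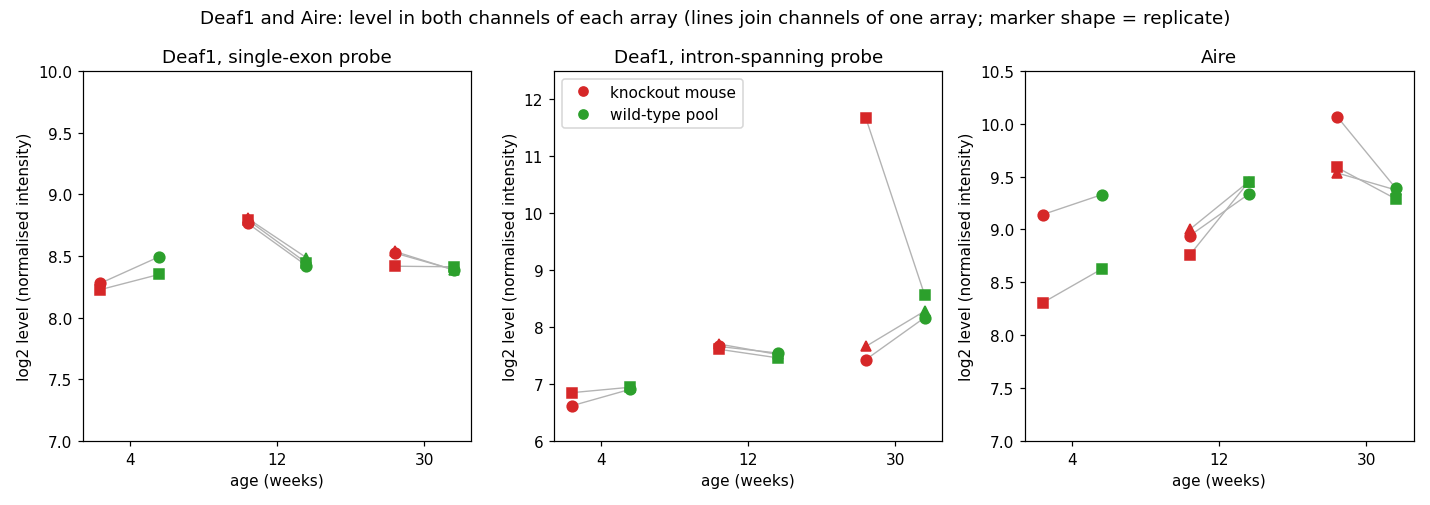
Log2 level (y axis, normalised brightness) of knockout mouse (red, left of each pair) and wild-type pool (green, right) at 4, 12 and 30 weeks (x axis) for both Deaf1 probes and Aire, with a line joining the channels of 1 array and circles, squares and triangles for replicates 1, 2 and 3. Aire lies below its pools at 12 weeks and above them at 30 weeks, and the intron-spanning Deaf1 probe reaches 11.67 in 1 knockout node.

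Cells of lymph nodes that express Aire are known to carry Epcam and Ccr7, and a list of 5 markers of such cells and of dendritic cells was all measured. Their median ratio per array ran from −0.19 to 0.13 at 4 weeks, −0.15 to 0.07 at 12 weeks and −0.26 to 0.08 at 30 weeks. At no single age were any of the 5 called higher. For the mean of the ages 1 was called higher and 2 lower. The higher one was Cd80 (0.21, adjusted p = 0.041), chosen after its values were seen, with 0.24, 0.18 and 0.19 at the 3 ages. Ccr7, a chemokine receptor that guides cells into nodes, fell by 0.75 ± 0.17 at 4 weeks (adjusted p = 0.0186) and by 0.63 ± 0.14 at 30 weeks (adjusted p = 0.00845). Epcam, an adhesion molecule of epithelial cells, fell by 0.46 ± 0.10 at 30 weeks (adjusted p = 0.00845), the age at which Aire rose. Their part in the readings of Aire was not tested. Of the other markers of cells in a node, 4 of B cells, 4 of T cells and 3 of fibroblastic reticular cells were measured. At 30 weeks, where 40.1% of all probes were called, 1 B cell marker was higher and 2 lower. At that age 2 T cell markers were lower and 0 reticular markers were called. At 4 weeks, where 19.2% of all probes were called, 1 B cell and 1 reticular marker were higher and 0 T cell markers were called. These were Ms4a1 (0.59 ± 0.17, adjusted p = 0.0411) and Pdgfra (0.82 ± 0.15, adjusted p = 0.00696). At 12 weeks 0 of these markers were called, where 3.35% of all probes were. Their part in the members' ratios was not tested. All 4 fat-cell markers were measured. Of these 1 was called lower at 4 weeks, 0 at 12 and 30 weeks, and 3 for the mean of the ages. The share of all probes called was 19.2% at 4 weeks and 43% for that mean. Their median ratio per array was −1.84 and −1.16 at 4 weeks, −2.02, −1.63 and 0.01 at 12 weeks, and −0.17, −0.87 and 0.26 at 30 weeks. The part of fat cells in the members' ratios was not tested.

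Of 18 genes whose proteins are known to act with Aire, all measured, 5 were called higher and 1 lower at 4 weeks, 0 at 12 weeks, and 6 higher and 4 lower at 30 weeks. Their median ratio was 0.15, 0.07 and −0.07 at these ages, beside 0.02, 0.02 and 0.03 over all genes. Of all probes, 19.2%, 3.35% and 40.1% were called at these ages. Top2b, a topoisomerase, rose by 0.79 ± 0.13 at 4 weeks (adjusted p = 0.0042) and by 0.53 ± 0.10 at 30 weeks (adjusted p = 0.0044). Hipk2, a kinase of nuclear bodies, rose by 0.54 ± 0.15 (adjusted p = 0.0337) and 0.67 ± 0.12 (adjusted p = 0.00314) at those ages. Pias1, a SUMO ligase, rose by 0.57 ± 0.07 at 4 weeks (adjusted p = 0.00139) and Ccnt2, a cyclin of the elongation factor P-TEFb, by 0.52 ± 0.10 (adjusted p = 0.00758). Of the 4 partners that were lower at 30 weeks, Fbxo3, a subunit of a ubiquitin ligase, and Top2a, a topoisomerase of dividing cells, were chosen after their values were seen. Fbxo3 was at −0.56 ± 0.11 (adjusted p = 0.00407) and Top2a at −0.45 ± 0.10 (adjusted p = 0.00828). Of 13 genes of the receptors and the NF-kB route known to act upstream of Aire, 12 were measured, of which 3 were higher at 4 weeks, 1 was lower at 12 weeks, and 2 were higher and 2 lower at 30 weeks. Chuk, a kinase of that route, rose by 0.50 ± 0.09 at 4 weeks (adjusted p = 0.00579) and fell by 0.35 ± 0.07 at 30 weeks (adjusted p = 0.0053). Nfkb2, which encodes the precursor of an NF-kB subunit, fell by 0.43 ± 0.08 at 12 weeks (adjusted p = 0.0357) and by 0.58 ± 0.08 at 30 weeks (adjusted p = 0.00119). Tnfrsf11a, the receptor RANK, rose by 0.40 ± 0.08 at 4 weeks (adjusted p = 0.0099) and by 0.19 ± 0.06 at 30 weeks (adjusted p = 0.0466). Traf3, an adaptor that restrains the route, rose by 0.38 ± 0.10 at 4 weeks (adjusted p = 0.0288). Of 9 self-antigen genes known to depend on Aire in thymus, 2 were bright enough to be tested and 0 were called at any age.

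Among 10 measured of 12 genes known as partners or targets of Deaf1, 3 were called higher and 1 lower at 4 weeks, 0 at 12 weeks, and 2 higher and 4 lower at 30 weeks. Their median ratio was 0.19, 0.01 and −0.19 at these ages, beside the all-gene medians given above. The shares of all probes called were 19.2%, 3.35% and 40.1%. Hnrnpa2b1, an RNA-binding protein whose promoter Deaf1 is known to repress, rose by 1.19 ± 0.13 at 4 weeks (adjusted p = 0.000981) and was at 0.30 ± 0.11 at both other ages (adjusted p = 0.127 at 12 weeks and 0.0567 at 30 weeks). Lmo4, a LIM protein that binds Deaf1, rose by 0.60 ± 0.11 at 4 weeks (adjusted p = 0.00703) and by 0.79 ± 0.09 at 30 weeks (adjusted p = 0.000705). Peli1, a ubiquitin ligase that interacts with Deaf1, rose by 0.50 ± 0.14 (adjusted p = 0.0407) and 0.64 ± 0.12 (adjusted p = 0.00337) at those ages. Bax, a cell death gene, fell by 0.99 ± 0.13 at 30 weeks (adjusted p = 0.00112).

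Among the neighbours of Deaf1 on chromosome 7, Tmem80 and Irf7 had ratios further from 0 than the single-exon Deaf1 probe at every age. Of 15 listed neighbours 12 were measured. Called lower were 3 at 4 weeks, 2 at 12 weeks and 4 at 30 weeks, and 2 were called higher at 30 weeks. Over all probes 19.2%, 3.35% and 40.1% were called at the 3 ages. Tmem80, which encodes a membrane protein and whose probe lies 34.9 kb from the single-exon Deaf1 probe, was lower on 8 of 8 arrays. Its knockout levels were 6.77 and 7.34 at 4 weeks, 7.31, 7.10 and 7.15 at 12 weeks, and 7.12, 7.71 and 7.14 at 30 weeks. Its pools read 8.99 and 8.49, then 9.31, 9.34 and 9.34, then 9.42, 9.36 and 9.40 at these ages, so that the channels did not overlap. Its fitted ratio was −1.69 ± 0.23 for mice of 4 weeks (adjusted p = 0.00234), −2.14 ± 0.19 for 12 weeks (adjusted p = 0.00458) and −2.07 ± 0.19 for 30 weeks (adjusted p = 0.000497). On the other side, at −36.7 kb, Irf7, which drives interferon genes, was at −0.39 ± 0.13 at 4 weeks (adjusted p = 0.0634), and lower with −0.55 ± 0.10 at 12 weeks (adjusted p = 0.0357) and −1.58 ± 0.10 at 30 weeks (adjusted p = 0.000363). Hras, a small GTPase at −110.2 kb, fell by 0.39 ± 0.09 at 4 weeks (adjusted p = 0.0171) and by 0.26 ± 0.07 at 30 weeks (adjusted p = 0.0207). Cd151, a tetraspanin at 169.7 kb, fell by 0.44 ± 0.07 at 4 weeks (adjusted p = 0.00544).

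**Figure D4:**
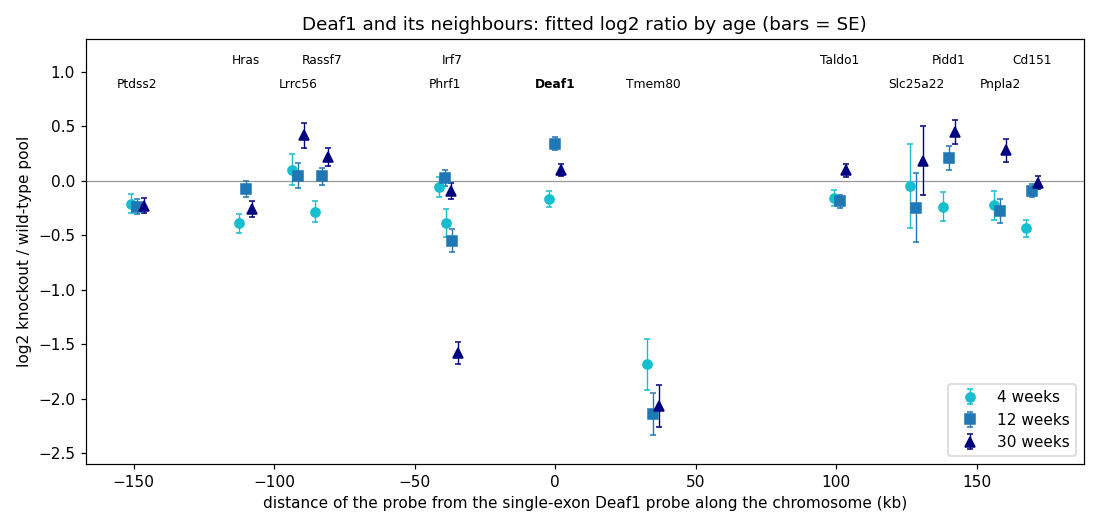
Fitted log2 ratio of knockout over wild-type pool with its standard error (y axis) at 4, 12 and 30 weeks for Deaf1 (its single-exon probe) and 12 neighbouring genes, against the distance in kilobases from that probe along the chromosome (x axis). Tmem80 at 34.9 kb lies between −2.14 and −1.69 at all ages, and Irf7 at −36.7 kb reaches −1.58 at 30 weeks.

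The probes of Gmeb1 did not move together. Probe A_51_P520066 (P520066, chromosome 4, 131497796 to 131497855, minus strand) had ratios of −0.29 and −0.08 at 4 weeks, 0.03, −0.01 and −0.14 at 12 weeks, and 0.37, 0.22 and 0.24 at 30 weeks. Its knockout levels were 10.72 and 10.49, then 10.28, 10.27 and 10.15, then 10.57, 10.37 and 10.35 at these ages, and its pools read 11.01 and 10.58, then 10.25, 10.27 and 10.29, then 10.19, 10.14 and 10.11. At 30 weeks every knockout node was above every pool reading. It rose there by 0.28 ± 0.07 (adjusted p = 0.0124, n = 3), with −0.19 ± 0.08 at 4 weeks (adjusted p = 0.159) and −0.04 ± 0.07 at 12 weeks (adjusted p = 0.754). The ratio was higher at 30 than at 4 weeks by 0.46 ± 0.11 (adjusted p = 0.0204). The rise lost its call without replicate 1 or 3 of 30 weeks (0.23 and 0.30), and the difference did so without those (0.42 and 0.48) and without replicate 1 of 4 weeks (0.36). With arrays centred on their median only, the ratios at 4 and 12 weeks turned to 0.68 and 0.58 and the difference to −0.11, where the median over all probes was 0.39 at 4 weeks and 0.34 at 12 weeks.

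Probe A_52_P281679 (P281679, chromosome 4, 131495108 to 131495167, minus strand), from another transcript record of Gmeb1, was higher in knockout nodes at 4 weeks. Its ratios were 0.61 and 0.43 at 4 weeks, −0.07, 0.19 and −0.24 at 12 weeks, and 0.16, 0.02 and 0.08 at 30 weeks. At 4 weeks the knockout nodes had levels of 10.93 and 10.74 and the pools 10.32 and 10.31, with no overlap. At 12 weeks the ratios lay on both sides of 0. It rose by 0.52 ± 0.10 at 4 weeks (adjusted p = 0.0106, n = 2), and the ratio was lower at 12 weeks than at 4 weeks by a difference of −0.56 ± 0.14 (adjusted p = 0.0487). The rise lost its call without replicate 1 of 4 weeks (0.43), and the difference kept its call only without replicate 2 of 12 weeks (−0.68) among the 8 fits that left out 1 array, with −0.65 to −0.46 in the other 7. Across the 8 arrays the ratios of the Gmeb1 probes had a Pearson correlation of −0.36, a description of readings from the same arrays.

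The probes of Gmeb2 share 55 of their 60 bases on chromosome 2, A_51_P101228 at 181181293 to 181181352 and A_52_P570738 at 181181298 to 181181357 (minus strand), so they are readings of 1 target. For A_51_P101228 the ratio lay between −0.13 and 0.17 on all 8 arrays, and for A_52_P570738 between −0.20 and 0.18. The ratios of both probes thus lay on either side of 0. None was called, and the 95% intervals of A_51_P101228 ran from −0.22 to 0.18 at 4 weeks, −0.12 to 0.20 at 12 weeks and −0.13 to 0.19 at 30 weeks. Knockout levels of that probe were 7.48 and 7.51 at 4 weeks and 7.90 to 8.25 at the other ages, beside 7.59 and 7.44 at 4 weeks and 7.98 to 8.08 in the pools.

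All 11 listed genes of the glucocorticoid receptor and of known Gmeb partners were measured, of which 4 were higher at 4 weeks, 0 were called at 12 weeks, and 1 was higher and 2 lower at 30 weeks. Nr3c1, the receptor itself, rose by 0.74 ± 0.12 at 4 weeks (adjusted p = 0.00527) and was at 0.18 ± 0.10 at 12 weeks and 0.06 ± 0.10 at 30 weeks (adjusted p = 0.285 and 0.654). Ncoa2, a coactivator of nuclear receptors, rose by 0.40 ± 0.09 at 4 weeks (adjusted p = 0.0198). Tsc22d3, a gene that glucocorticoids induce, fell by 1.57 ± 0.30 at 30 weeks (adjusted p = 0.00387). The list's median ratio was 0.32, −0.09 and 0.03 at 4, 12 and 30 weeks, where 19.2%, 3.35% and 40.1% of all probes were called.

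Sp100, which encodes a component of PML nuclear bodies, was higher in knockout nodes at 4 weeks at its intron-spanning probe. Knockout levels at A_51_P305583 were 10.59 and 10.68 at 4 weeks, 10.75, 10.66 and 10.45 at 12 weeks, and 10.63, 10.61 and 10.78 at 30 weeks. The pools read 9.86 and 9.93 at 4 weeks, 10.39, 10.47 and 10.41 at 12 weeks, and 10.74, 10.77 and 10.72 at 30 weeks. The knockout channel thus stayed within 10.45 to 10.78 at all ages, and the pools were lowest at 4 weeks and highest at 30 weeks, with no overlap between ages. Ratios were 0.73 and 0.75 at 4 weeks, a rise of 0.74 ± 0.09 (adjusted p = 0.00153, n = 2). They were 0.36, 0.19 and 0.04 at 12 weeks, with a mean of 0.20 ± 0.08 (adjusted p = 0.15). At 30 weeks they were −0.11, −0.16 and 0.06, with a mean of −0.07 ± 0.08 (adjusted p = 0.498). The ratio was lower at 12 than at 4 weeks (difference −0.54 ± 0.12, adjusted p = 0.0376) and at 30 than at 4 weeks (difference −0.81 ± 0.12, adjusted p = 0.00404). The rise at 4 weeks and the difference of 30 minus 4 weeks kept their calls in each of 21 and 20 other settings. The difference of 12 minus 4 weeks lost its call without either array of 4 weeks (−0.56 and −0.53), without replicate 3 of 12 weeks (−0.47) and without any 1 array of 30 weeks (−0.54 each).

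Probe A_51_P255016 (P255016, chromosome 1, 87540737 to 87540796, plus strand), from another record of Sp100, was lower in knockout nodes at 30 weeks. Its ratios were 0.47 and 0.29 at 4 weeks, −0.50, 0.07 and −0.10 at 12 weeks, and −0.60, −0.58 and −0.48 at 30 weeks. At 30 weeks the knockout nodes had levels of 9.93, 9.86 and 9.998 and the pools 10.53, 10.44 and 10.47, with no overlap. It fell there by 0.55 ± 0.10 (adjusted p = 0.00355, n = 3), with 0.38 ± 0.12 at 4 weeks (adjusted p = 0.0635) and −0.18 ± 0.10 at 12 weeks (adjusted p = 0.305). The ratio at 30 weeks was lower than at 4 weeks (difference −0.94 ± 0.16, adjusted p = 0.00674), a call lost without replicate 1 of 4 weeks (−0.85). With arrays centred on their median only, the value at 30 weeks was −0.26 and not called (adjusted p = 0.227), where the median over all probes was 0.11. On 8 of 8 arrays this probe read below the intron-spanning probe, by 0.11 to 0.86, and at 30 weeks by 0.42 to 0.54. The difference between the probes was not tested.

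The last Sp100 probe, A_52_P127720 (P127720, chromosome 1, 87490946 to 87491003, plus strand), was called at no single age. Its ratios were 0.55 and 0.19 at 4 weeks, 0.20, 0.45 and 0.17 at 12 weeks, and 0.06, −0.30 and −0.10 at 30 weeks. The 5 arrays of 4 and 12 weeks were above 0 and 2 of 3 at 30 weeks below it, with 0.37 ± 0.12 (adjusted p = 0.0665), 0.27 ± 0.10 (adjusted p = 0.133) and −0.11 ± 0.10 (adjusted p = 0.39) at the 3 ages. Over the mean of the ages the call of this probe (0.18 ± 0.06, adjusted p = 0.0475) was kept in 2 of the 8 fits without an array, those without replicate 2 of either 4 or 30 weeks, and the other 6 gave 0.12 to 0.19.

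Sp110, an interferon-induced nuclear body protein known in mice from the tuberculosis resistance locus sst1, was higher in knockout nodes at 4 weeks. Its probe, A_52_P512201, lies on chromosome 1 at 87408128 to 87408187 (minus strand). Knockout levels were 14.59 and 15.21 at 4 weeks, 13.39, 13.79 and 13.43 at 12 weeks, and 13.48, 13.49 and 13.40 at 30 weeks. The pools read 13.79 and 14.61 at 4 weeks, 13.48, 13.37 and 13.34 at 12 weeks, and 13.45, 13.49 and 13.45 at 30 weeks. Both channels were highest on replicate 2 of 4 weeks, and within each array of that age the knockout node was above its pool. Ratios were 0.80 and 0.60 at 4 weeks, a rise of 0.70 ± 0.12 (adjusted p = 0.00477, n = 2). They were −0.09, 0.42 and 0.09 at 12 weeks, with a mean of 0.14 ± 0.09 (adjusted p = 0.368). At 30 weeks they were 0.03, 0.00 and −0.04, with a mean of 0.00 ± 0.09 (adjusted p = 0.986). The ratio at 30 weeks was lower than at 4 weeks (difference −0.70 ± 0.15, adjusted p = 0.0145). Without replicate 1 of 4 weeks the rise was 0.60 and the difference −0.60, neither called, and without replicate 3 of 30 weeks the difference was −0.68 and not called.

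Across the 8 arrays the ratios of Sp110 had a Pearson correlation of 0.95 with Sp100 probe P255016, 0.79 with the intron-spanning Sp100 probe and 0.73 with P127720, and P255016 had −0.60 with Aire. These are descriptions of readings that share arrays and pools. The mean over the ages was called for Sp110 (0.28 ± 0.06, adjusted p = 0.00547), the intron-spanning Sp100 probe (0.29 ± 0.05, adjusted p = 0.00186) and Gmeb1 probe P281679 (0.19 ± 0.05, adjusted p = 0.0203), besides P127720. The Gmeb1 call was lost without replicate 1 of 4 weeks (0.16) and without replicate 1 of 30 weeks (0.18).

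The cluster on chromosome 1 that holds Sp100 and Sp110 carries near-identical copies, so that probes of these genes may read more than 1 copy. The probes of related transcripts gave mixed readings. Csprs, a component of the Sp100-rs repeat, rose by 0.40 ± 0.11 at 4 weeks (adjusted p = 0.0289) at 1 probe, while the other gave 0.10 ± 0.10 there and fell by 0.24 ± 0.08 at 30 weeks (adjusted p = 0.0378). At 4 weeks that other probe was well above background on 0 of 2 arrays in either channel, so its reading there is near the floor. Its position is given as chromosome 8_random, not chromosome 1. Transcript A630001G21Rik, described in the files by its Sp100 domain, fell by 0.40 ± 0.08 at 30 weeks (adjusted p = 0.00447). Predicted transcripts described as similar to SP140 gave opposite calls at 30 weeks. LOC673370 rose by 0.25 ± 0.08 (adjusted p = 0.0379) and LOC545342 fell by 0.42 ± 0.08 (adjusted p = 0.00515).

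Of 13 genes of PML nuclear bodies, all measured, 5 were higher at 4 weeks and 0 were called at 12 weeks. At 30 weeks 2 were higher and 3 lower. The median ratios were 0.24, 0.00 and −0.09 at these ages, where 19.2%, 3.35% and 40.1% of all probes were called. At 30 weeks Sumo3, which encodes a small protein modifier, fell by 1.07 ± 0.11 (adjusted p = 0.000605) and Atrx, a chromatin remodeller, by 0.78 ± 0.10 (adjusted p = 0.001). Of 26 interferon-response genes 25 were measured, of which 3 were higher and 1 lower at 4 weeks, 1 was higher and 1 lower at 12 weeks, and 3 were higher and 15 lower at 30 weeks. Their median ratio was 0.13, 0.17 and −0.39 at these ages, and per array it was −0.06 and 0.17 at 4 weeks, 0.10, 0.27 and −0.07 at 12 weeks, and −0.40, −0.35 and −0.43 at 30 weeks. Trim30a, an interferon-induced regulator of signalling, rose by 0.95 ± 0.10 at 4 weeks (adjusted p = 0.000772) and fell by 0.27 ± 0.08 at 30 weeks (adjusted p = 0.0277). Ifih1, a sensor of viral RNA, rose by 0.80 ± 0.10 at 4 weeks (adjusted p = 0.00176). Oas1a, an antiviral enzyme, fell by 0.99 ± 0.13 at 30 weeks (adjusted p = 0.000963), where the intron-spanning Sp100 probe and Sp110 read −0.07 and 0.00. Of the other Sp100 probes, P255016 fell by 0.55 ± 0.10 there (adjusted p = 0.00355) and P127720 was at −0.11 ± 0.10 (adjusted p = 0.39).

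**Figure D5:**
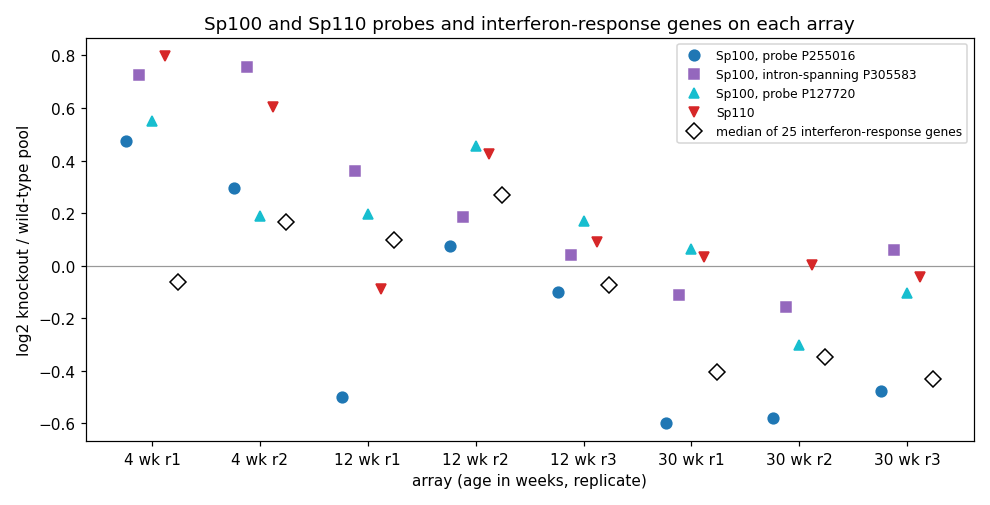
Log2 ratio of knockout over wild-type pool (y axis) on each of the 8 arrays (x axis) for 3 Sp100 probes, Sp110 and the median of 25 interferon-response genes (open diamonds). All 4 probes are above 0 at 4 weeks, while at 30 weeks P255016 lies between −0.60 and −0.48 and the diamonds between −0.43 and −0.35.

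By likeness of the 8 ratios, the single-exon Deaf1 probe was nearest to Mxd3 (Pearson correlation 0.97), Nt5m (0.97), Polr2c (0.97), Rcc1 (0.96) and Olfr1307 (0.96). Aire was nearest to Rock1, Cox6a2, Upb1, Efcab14 and Rapgef6, each at 0.96. These are the highest of 23279 probes compared for Deaf1 and 23280 for Aire over 8 arrays, and they describe these arrays only. The correlation compares the pattern over arrays, not the sign of the ratios. Aire was below 0 on 5 arrays, while Rock1 (0.18 to 1.142), Efcab14 (0.145 to 1.034) and Rapgef6 (0.099 to 0.55) were above 0 on every array. The Deaf1 probe was above 0 on 6 arrays, while Polr2c (−0.376 to −0.047) was below 0 on every array. The other genes named here had ratios on both sides of 0.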

How the data were processed

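RNA of pancreatic lymph nodes was hybridised to 2-colour Agilent arrays. Per the file headers, the deposited intensity values (mean signal and median background of each channel) and the log10 ratio come from Feature Extraction 9.5.3.1 at 4 weeks and 10.2.1.3 at 12 and 30 weeks. The deposited series matrix holds log2 ratios by the authors that matched the log2 ratio of the scanner's processed signals within 0.01 for 99.8% to 99.9% of probes. Its medians per array run from −0.2101 to 0.1515, so arrays were not centred.

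In limma 3.58.1 (R 4.3.3) background was corrected by normexp with an offset of 50, and ratios by loess within arrays, with control spots at weight 0. Spots flagged as outliers were dropped and spots of a probe averaged. Levels are channel values after loess and Aquantile scaling. A probe was tested if well above background in 1 channel on all arrays of an age, which left 27463 probes. One limma model with a mean per age, fitted to all 8 arrays, gave the ratio at each age, their mean and the differences between ages, with p-values adjusted by Benjamini and Hochberg over all tested probes. The fit was tested on simulated data. Nothing in the labels says that mice came from separate litters, so p-values measure the spread between these samples.

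All member probes are named. From each gene list up to 4 called genes with the smallest unadjusted p at any age are named, by the brightest probe of a gene, and for Deaf1 and Aire the 5 most similar probes. Tmem80, Irf7, Eif4g3, Xist, Ddx3y and Eif2s3y were named besides. Some genes that this rule selects are not reported here. Members and lists were chosen with earlier results of these data known. Alternatives were other normalizations, background corrections and filters, slide or replicate number as a block, array weights, each age alone, and leaving out arrays. Probe positions are mm8, as in the files of 4 weeks, and promoters are RefSeq's (GRCm38.p6).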

Additional observations from a re-analysis of the deposited data

Results flagged for a closer look

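The ratio of knockout over wild-type pool differed between ages by limma's test of the difference itself for 7 of the 11 tested member probes. Of all probes, 5.6% were called for 12 minus 4 weeks, 0.827% for 30 minus 12 weeks and 19.1% for 30 minus 4 weeks. The share of all probes called in any of these contrasts was not counted, so the 7 have no such share beside them. The ratio was higher at 12 than at 4 weeks for the single-exon Deaf1 probe, by 0.51. It was higher at 30 weeks than at 12 weeks and at 4 weeks for Aire, by 0.89 and 0.63, and higher at 30 than at 4 weeks for Gmeb1 probe P520066, by 0.46. It was lower at 12 than at 4 weeks for Gmeb1 probe P281679 (difference −0.56). The intron-spanning Sp100 probe was lower at 12 weeks (difference −0.54) and at 30 weeks (difference −0.81) than at 4 weeks. Sp100 probe P255016 and Sp110 were lower at 30 than at 4 weeks (differences −0.94 and −0.70). The arrays of 4 weeks share a slide and a version of the scanner software, so age and these cannot be told apart. Pools of 12 weeks also differed from those of the other ages in Xist and Ddx3y, and age and that difference cannot be told apart.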

How the results depend on the processing

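Counts of called probes are given for 4 weeks, 12 weeks, 30 weeks, the mean of ages, 12 minus 4, 30 minus 12 and 30 minus 4 weeks, first of member probes and then of all probes. They were 3, 2, 3, 4, 3, 1 and 5, and 5286, 921, 11015, 11821, 1538, 227 and 5237, as reported. Centring arrays on their median with no loess gave 6, 9, 3, 10, 0, 0 and 5, and 13125, 13922, 7167, 16980, 81, 8 and 5958. The scanner's own log ratio gave 5, 0, 2, 4, 1, 0 and 6, and 8823, 232, 10967, 12764, 2644, 2 and 6641. The deposited matrix gave 5, 0, 2, 4, 1, 0 and 6, and 8947, 228, 10858, 12662, 2753, 2 and 6680. The deposited matrix with arrays centred gave 4, 0, 1, 4, 0, 0 and 5, and 6934, 169, 8327, 11143, 810, 3 and 4631. No background subtraction gave 4, 2, 3, 5, 3, 1 and 6, and 5235, 1174, 11415, 12144, 1558, 213 and 5299. An offset of 16 gave 4, 2, 3, 4, 1, 1 and 6, and 6682, 832, 11362, 12401, 1682, 158 and 5886. The next 3 settings tested other numbers of probes than the 27463 of the main fit. No filter on dim probes (41174 tested) gave 3, 2, 3, 3, 3, 1 and 5, and 5152, 926, 10930, 12028, 1554, 264 and 5057. A filter on both channels of all 8 arrays (14969 tested) gave 5, 2, 3, 4, 4, 1 and 6, and 5282, 834, 7913, 8521, 1856, 246 and 4505. The brightest probe per gene (18410 tested, 1 per member gene) gave 2, 2, 2, 2, 2, 1 and 4, and 4184, 477, 7177, 8120, 1288, 143 and 3467. Slide as a random block gave 6, 6, 3, 6, 5, 3 and 8, and 8933, 13605, 13721, 17085, 6183, 3464 and 9091. The correlation within slides in that fit was −0.26. A negative value shrinks the standard error of a mean over arrays of 1 slide, so the larger counts do not show stronger results. Array weights gave 4, 2, 4, 5, 5, 5 and 8, and 5897, 7278, 15611, 13830, 3671, 9005 and 7704. With the replicate block they were 3, 1, 3, 2, 0, 0 and 5, and 3441, 586, 10181, 10161, 467, 8 and 3428, and the rise of Deaf1 at 12 weeks lost its call (adjusted p = 0.0546). Deviations of same-numbered arrays from the mean of their age correlated by −0.08 to 0.23. With 2 or 3 arrays an age these deviations depend on each other, so they cannot decide whether the numbers pair the samples. Each age fitted alone gave 5, 0 and 3, and 6380, 7 and 13236, at the 3 ages. The slide that holds 12 and 30 weeks gave 0 member and 30 of all probes for 30 minus 12 weeks. Leaving out 1 array at a time gave 1 to 5, 0 to 1, 1 to 4, 2 to 5, 0 to 5, 0 to 2 and 1 to 7 member probes, and 522 to 6753, 23 to 3026, 6205 to 12069, 7443 to 12713, 1 to 2379, 2 to 4073 and 964 to 6983 of all probes.

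Centring on the median alone moved the median of all probes to 0.39, 0.34 and 0.11 at 4, 12 and 30 weeks, and 94.9%, 92.3% and 83.2% of the called probes were then higher. Centring the deposited matrix put the median at 0.17 and 0.10 at 4 and 12 weeks, with 82.2% and 75.7% of the called probes higher. Centring on the median alone turned the sign of Gmeb1 probe P520066 (0.68 at 4 weeks, 0.58 at 12 weeks and −0.11 for 30 minus 4 weeks), Aire (0.027 at 12 weeks and 0.35 for the mean of ages), Gmeb1 probe P281679 (0.55 at 12 weeks), Sp100 probe P255016 (0.44 at 12 weeks and 0.46 for the mean of ages) and Sp110 (0.51 at 30 weeks). Ratios called neither before nor after turned too, for the single-exon Deaf1 probe (0.39), Aire (0.38) and the Gmeb2 probes (0.28 and 0.17) at 4 weeks, and for Sp100 probes A_51_P305583 (0.26) and P127720 (0.06) at 30 weeks. Under it the fall of Sp100 probe P255016 at 30 weeks lost its call (−0.26). The value of Aire at 12 weeks under that centring, 0.027, lay below the median of all probes, 0.34, but was not tested against it. Leaving out replicate 2 of 30 weeks turned the intron-spanning Deaf1 probe (−0.68 at 30 weeks, −0.24 for the mean of ages, −0.83 for 30 minus 12 weeks and −0.49 for 30 minus 4 weeks), where leaving out other arrays gave up to 1.24, 0.40, 1.09 and 1.44. Aire lost its call at 30 weeks with the scanner's own ratio (0.41, adjusted p = 0.0532). With 2 or 3 arrays an age, the number of arrays limits the precision. Apart from the constructions that test fewer arrays or probes, the cause of these changes was not tested.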

Other observations

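Eif4g3, which encodes a translation initiation factor and is no SAND gene, was lower in knockout nodes at each age. In limma's fit of all probes its ratio was −0.97 ± 0.09 for mice of 4 weeks (adjusted p = 0.000525), −1.35 ± 0.07 for 12 weeks (adjusted p = 0.000244) and −1.49 ± 0.07 for 30 weeks (adjusted p = 0.000105).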
